A study of Bos taurus and Ovis aries and Capra hircus with 18 samples.

Results

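Adult brain of cattle was set against adult brain of goat, with 3 libraries, lettered A, B and C, from each species. They are 6 of the 18 libraries of a study of brain and muscle in cattle, sheep and goat. RNA had been taken from frozen tissue with TRIzol, selected for polyadenylated transcripts with oligo(dT) beads and copied from random hexamers. All animals were adult, and the labels name no treatment, breed, sex or exact age and do not say which region of the brain was taken. A difference between species therefore cannot be told apart from a difference in the region, age, sex or breed of the animals sampled. The labels do not say whether A, B and C are different animals, so p-values measure only the spread between these samples, which may be technical.

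The authors counted each species against separate gene models, 27607 genes in cattle and 27271 in goat, and goat genes carried identifiers only. Genes were paired by the lengths of neighbouring exons and by their order along the chromosome, which gave 14064 pairs, 11980 of them with a symbol taken from cattle. Of the 14064 pairs, 11982 passed the filter on low counts and were tested. A gene model that is longer in one species can collect more reads there, so counts were corrected by the exonic length that the files give for each gene (Length). Most weight is given to the 3347 tested pairs whose Lengths lie within 1.2 times of each other. The Length ratio, cattle over goat, is printed beside any single gene outside that range. Levels below are length-corrected CPM (counts scaled to a common library size), which can be compared between genes. A log2 difference is cattle minus goat with its standard error after ±, so that positive values mean higher in cattle. A pair was called at an edgeR Benjamini-Hochberg (BH) adjusted p below 0.05 and a log2 difference of at least 1 in size.

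Brain tissue mixes neurons with several kinds of glia. Oligodendrocytes wrap axons in myelin, a stack of lipid-rich membrane held together by a small set of abundant proteins. Astrocytes clear glutamate and potassium from around synapses and supply cholesterol to neurons, which the brain must make for itself because lipoproteins do not cross from the blood. Microglia are the resident macrophages, and they and astrocytes make most of the complement proteins found in brain.

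The libraries held 42891698 to 58514630 counts in cattle brain and 20730803 to 29496749 in goat brain, and 61.6% to 64.9% of the cattle counts and 77.4% to 80.3% of the goat counts fell in paired genes. Genes of the mitochondrial genome took 22.9% to 26.6% of the counts in cattle brain and 2.29% to 4.02% in goat brain. They had no partner and entered no fit, and their part in the differences below was not tested. Spearman correlations of levels were 0.977 to 0.994 within cattle, 0.961 to 0.973 within goat and 0.865 to 0.889 between the species. The neuronal marker SNAP25, part of the machinery that fuses synaptic vesicles, stood at 3843, 3275 and 2949 in cattle A, B and C and at 2627, 4768 and 1956 in goat A, B and C (Length ratio 0.766), with groups that overlapped. RBFOX3, a splicing factor of mature neurons, stood at 314, 305 and 209 in cattle and 208, 272 and 211 in goat (Length ratio 2.33), and with no length correction it was called higher in cattle at 1.15. GAD1, which makes the transmitter GABA, stood at 192, 177 and 133 in cattle and 134, 195 and 191 in goat (Length ratio 0.773). These neuronal genes were present in all 6 libraries, as the tissue label says. The summed level of the hindbrain and spinal cord genes was 2.86 to 3.91 in cattle and 3.49 to 4.14 in goat, over the 5 tested of 32 listed. That of the skeletal muscle genes was 161 to 242 and 87.9 to 142, over the 10 tested of 18 listed. The other listed genes had no pair or did not pass the filter, so these sums cover only part of each list.

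Calls were about as many in each direction over all pairs. Of 11982 pairs, 1670 (13.9%) were called higher in cattle brain and 1697 (14.2%) higher in goat brain. Among the 3347 pairs of like Length, 378 (11.3%) were higher in cattle and 282 (8.43%) higher in goat, and in 1619 of them (48.4%) the 3 libraries of one species all lay above the 3 of the other. Counts of calls in the lists below are to be read against these shares over all pairs and at like Length. The split between the directions depends on the scaling of the libraries. With scaling factors taken from the pairs of like Length alone it was 270 to 360, and with library totals it was 594 to 212. Library totals, here and below, are the summed length-corrected counts of the tested pairs in each library, with no scaling factor. They leave out unpaired genes and the genes of the mitochondrial genome. The median log2 difference of the pairs of like Length was 0.18 with the scaling used here and 0.01 and 0.42 with those 2 alternatives (0.03, -0.15 and 0.27 over all pairs), and differences below are best read against that median.

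Length itself moved with the result. The median log2 difference in brain ran from 1.03 for the 887 pairs whose goat Length is at least 2 times the cattle Length, through 0.20 for the 1236 pairs within 5% of each other, to -0.63 for the 2300 pairs whose cattle Length is over 2 times the goat Length. In the first class 50.8% of pairs were called higher in cattle and 7.33% higher in goat, and in the last class 5.91% and 33.1%. Muscle of the same species showed the same order, from 0.94 through 0.26 to -0.49. Corrected differences thus leaned towards the species with the shorter gene model, in both tissues. Genes outside like Length are to be read with that lean in mind. AGT, NDRG2, NTRK2, MBP, OPALIN, CD3E and MS4A1 below all go in its direction, while AQP4, DHCR7 and FKBP5 go against it. Named genes were also fitted with no length correction, and for the brain differences described the value of that fit is given where it ended or made a call or turned the direction.

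**Figure D1:**
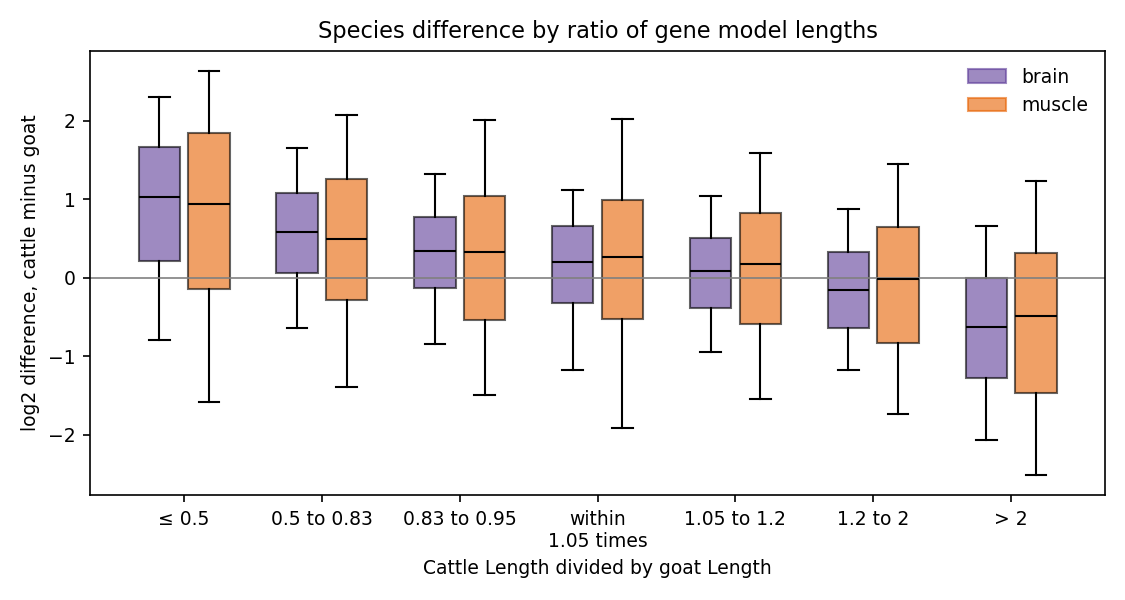
Log2 difference, cattle minus goat, in brain and in muscle by class of Length ratio; each box spans the quartiles with the median as a line, and whiskers reach the 10th and 90th percentiles. In brain the median falls from 1.03 where the goat gene model is at least 2 times longer to -0.63 where the cattle model is over 2 times longer.

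Gene models that overlap also bear on single genes. Of the goat genes whose exon bases are all shared with another gene model, all 60 that overlap a gene of the opposite strand only and all 47 that overlap one of the same strand had 0 counts in every goat brain library. In cattle the same held for all 61 and all 107 such genes. Among genes with no overlap, 23.6% in cattle and 24.4% in goat had 0 counts. A 0 in a gene that lies wholly inside another is therefore no measure of its expression, and the share of exon bases that a named gene shares with another gene model is given where it is over 3%. The tubulin TUBA4A, with 99.8% of its goat exon bases shared, stood at 878, 877 and 744 in cattle and 0, 0.332 and 0.059 in goat (Length ratio 1.46). The glycolytic enzyme TPI1, with 63.6% of its cattle and 4.05% of its goat exon bases shared, went the other way at 15.9, 16.6 and 16.2 in cattle and 1538, 1726 and 2155 in goat (Length ratio 1.99).

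The pairs of largest difference, here and in the next paragraphs, were chosen as called and without overlap between the libraries of the species. Separation of their libraries follows from that choice and is a description. The largest differences among named pairs of like Length were those of LRRC73 and MICOS13. LRRC73, a leucine-rich repeat protein, stood at 134, 160.5 and 110.5 in cattle A, B and C and had 0 counts in the 3 goat libraries, at least 1430-fold higher against 3 counts over the goat group. MICOS13, a subunit of the complex that shapes the folds of the inner mitochondrial membrane, stood at 159, 176 and 133 in cattle and 0 in goat, at least 620-fold higher by the same floor. In both genes all of the goat exon bases are shared with another gene model, so the goat libraries hold no measure of either gene and the folds describe the counts alone. PARP6, an ADP-ribosyltransferase, stood at 95.2, 93.2 and 98.7 in cattle and 3.83, 5.05 and 3.99 in goat, a log2 difference of 4.48 ± 0.19 (edgeR, BH adjusted p = 2.68e-06), with 88.8% of its goat exon bases shared. UNC5A, a netrin receptor that guides axons, was higher in cattle by 2.02 ± 0.17 with 39.2% of its goat exon bases shared.

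Genes with no such overlap followed. SERPINF1, a secreted serpin that protects neurons and restrains vessel growth, stood at 36.9, 38.9 and 28.8 in cattle A, B and C and at 1.16, 3.08 and 3.67 in goat A, B and C. The log2 difference of SERPINF1 was 3.73 ± 0.41 (edgeR, BH adjusted p = 0.000191). ENTREP1, an adaptor in the endocytosis of membrane receptors, stood at 33.6, 39.1 and 41.4 in cattle and 3.19, 4.38 and 4.11 in goat, a difference of 3.29 ± 0.22 (edgeR, BH adjusted p = 2.25e-05). ATIC, the enzyme of the last steps of purine synthesis, stood at 136, 155 and 167 in cattle and 22.5, 23.8 and 41.9 in goat. Its lowest cattle library was over 3 times its highest goat library, and the log2 difference was 2.37 ± 0.26 (edgeR, BH adjusted p = 0.000183).

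Further pairs of like Length were higher in cattle. CSF1, the cytokine on which microglia depend, stood at 33.1, 37.8 and 29.3 in cattle and 9.22, 6.80 and 7.08 in goat, a difference of 2.12 ± 0.20 (edgeR, BH adjusted p = 8.34e-05). PAX6, a homeobox factor kept in some adult neurons and astrocytes, stood at 58.6, 53.9 and 53.04 in cattle and 13.2, 11.8 and 15.8 in goat, a difference of 2.02 ± 0.18 (edgeR, BH adjusted p = 7.92e-05). In both genes the lowest cattle library was over 3 times the highest goat library. EZR, which ties membrane to actin in the fine processes of astrocytes, stood at 265, 304 and 184 in cattle and 72.5, 53.7 and 60.8 in goat, 2.01 ± 0.22 apart. The remaining pairs of this group were LRRC27 at 3.32 ± 0.26, AFF1 of a transcription elongation complex at 2.75 ± 0.26, the monocarboxylate carrier family member SLC16A6 at 2.53 ± 0.21 and AMOTL1 of cell junctions at 2.03 ± 0.30. HP, the haptoglobin that binds free haemoglobin, stood at 2.76 ± 0.49 with 7.2% of its goat exon bases shared.

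In goat the leading pairs included RBM24 and GPR143. RBM24, an RNA-binding protein that steers splicing in striated muscle, stood at 19.1, 21 and 18.6 in cattle A, B and C and at 240.1, 311 and 265 in goat A, B and C. The goat libraries were all more than 10 times any cattle library, and the log2 difference was -3.8 ± 0.18 (edgeR, BH adjusted p = 5.58e-06). In cattle RBM24 lies on the minus strand of chromosome 23, from 40056293 to 40067746 (ARS-UCD1.2). GPR143, a receptor best known from the pigment organelles of the eye, stood at 8.20, 6.85 and 8.36 in cattle and 95.9, 83.5 and 108 in goat, a difference of -3.62 ± 0.19 (edgeR, BH adjusted p = 1e-05). VSIG2, a cell surface protein of the immunoglobulin family, stood at 24.3, 18.6 and 5.30 in cattle and 249, 415 and 124 in goat, with a wide spread inside each group, a difference of -4.03 ± 0.60 (edgeR, BH adjusted p = 0.000881) and 16.9% of its goat exon bases shared.

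Further pairs higher in goat were RFC4, a subunit of the clamp loader of DNA replication, at -2.74 ± 0.33, the protease inhibitor SERPINB1 at -2.4 ± 0.26 and CDK5RAP2 of the centrosome at -2.08 ± 0.26. BREH1 stood at -3.21 ± 0.37 and ARHGEF37, a guanine nucleotide exchange factor, at -2.08 ± 0.53, the latter with 178, 33.9 and 57.8 in goat A, B and C and so highest in goat A. PET117, an assembly factor of cytochrome oxidase, stood at -2.31 ± 0.20 with 61.0% of its cattle exon bases shared. SRR, the racemase that makes D-serine for glutamate receptors, stood at -2.03 ± 0.21 with 40.8% of its cattle exon bases shared. RPL23A, a ribosomal protein, stood at -2.38 ± 0.20 and is uncertain, since ribosomal protein genes have near-identical copies and 6.89% of its goat exon bases are shared. The let-7 precursor MIRLET7A-3 had 2 counts over the cattle group and 79 over the goat group, with 32.7, 33.9 and 29.6 in goat A, B and C and the cattle counts in library C alone.

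Myelin genes were mostly higher in goat. Of 22 tested genes of oligodendrocytes and myelin, 12 were called higher in goat and 1 higher in cattle, with a median log2 difference of -1.37, beside 14.2% and 13.9% called and a median of 0.03 over all pairs. Of the 7 with like Length, 5 were higher in goat and the other 2 were not called, with a median of -1.76 beside 0.18. In bulk tissue, fewer cells of a type and less RNA per cell cannot be told apart. Goat A stood apart from goat B and C. The summed level of the list was 4398, 5933 and 5975 in the cattle libraries and 106900 in goat A, 18720 and 19480 in the other goat libraries. Without goat A, 7 of 22 were called higher in goat and 2 higher in cattle with a median of -0.94, and 2 of the 7 of like Length with a median of -0.96. The share of white matter in each piece of tissue is not recorded, and its part in the difference was not tested.

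Single genes showed how far the difference rests on goat A. CLDN11, the claudin that seals the layers of the sheath, stood at 68.7, 60.6 and 59.3 in cattle A, B and C and 449.5, 194 and 175 in goat A, B and C, a difference of -2.12 ± 0.35 (edgeR, BH adjusted p = 0.00145) that stayed called without any one library, from -2.35 to -1.55. KLK6, a protease of oligodendrocytes, stood at 3.40, 1.86 and 1.03 in cattle and 127, 20.1 and 11.97 in goat, -4.64 ± 0.93 apart (edgeR, BH adjusted p = 0.00373) and -2.92 without goat A. Both therefore differed with and without the library that stood apart.

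Enzymes and transport genes of the same cells went the same way. UGT8, which makes the galactolipids of myelin, stood at 37.3, 35.1 and 32.7 in cattle and 188, 70.1 and 66.3 in goat, a difference of -1.63 ± 0.38 (edgeR, BH adjusted p = 0.00806). ERMN, a cytoskeletal protein of the sheath, stood at 55.6, 52.3 and 51.1 in cattle and 410.2, 114 and 94.2 in goat, a difference of -1.96 ± 0.50 (edgeR, BH adjusted p = 0.0124). Without goat A the differences of UGT8 and ERMN were -0.96 and -0.97 and their calls ended, and that of ERMN also ended without cattle C (edgeR, BH adjusted p = 0.0508). Outside like Length, TF, the iron carrier transferrin, stood at -2.82 ± 0.38 (Length ratio 1.22), MOG at -2.61 ± 0.40 (ratio 2.19, with 51.3% of its cattle exon bases shared), CNP at -1.9 ± 0.42 (ratio 1.9) and OPALIN at -2.68 ± 0.38 (ratio 4.62). MBP, the basic protein that binds the inner faces of the membrane, stood at 2914, 3184 and 1574 in cattle and 93360, 13740 and 15040 in goat with a Length ratio of 4.98. Goat A alone held over 6 times the level of goat B or C. MAG, an adhesion protein, was not called at -0.42 ± 0.36 (ratio 0.568), nor was SOX10, the master regulator of the lineage, at 0.01 ± 0.40 (ratio 1.32). CRYAB, a small heat shock protein, was the member called the other way at 2.34 ± 0.39 (ratio 0.321, 3.21% of goat exon bases shared). With no length correction the calls of MBP at -2.02, OPALIN at -0.81 and CRYAB at 0.36 ended, and MAG was called higher in goat at -1.57.

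**Figure D2:**
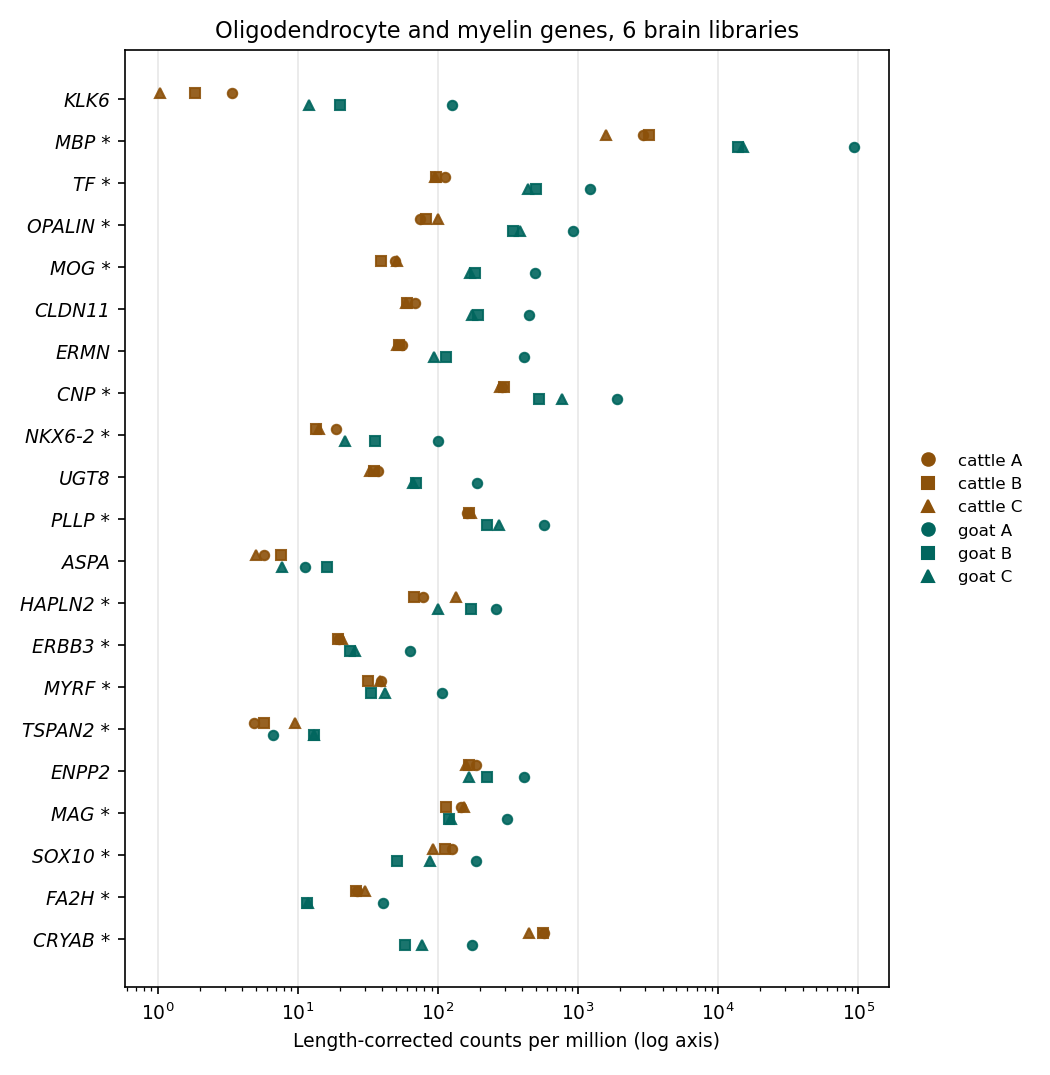
Length-corrected CPM (log axis) of oligodendrocyte and myelin genes tested, with a point for each of the 6 brain libraries; an asterisk marks a gene whose Lengths differ by more than 1.2 times. Goat A lies to the right of the other goat libraries for most myelin genes, as for UGT8 at 188 against 70.1 and 66.3.

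Genes of oligodendrocyte precursors, the cells that give rise to the mature ones, were listed apart. Over all pairs 13.9% were called higher in cattle and 14.2% higher in goat. Their summed level was 450.9 to 619.2 in cattle and 2137, 472.2 and 452.4 in goat A, B and C, so that goat A stood apart here too. Of 7 tested, 3 were called higher in cattle and 4 were not called, with a median of 0.19, but with scaling from the pairs of like Length 1 was higher in cattle and 2 higher in goat. All 3 were among the 5 of like Length, whose median was 1.03 beside 0.18. The shares called at like Length were 11.3% higher in cattle and 8.43% higher in goat. With that other scaling 1 of the 5 was higher in cattle and 1 higher in goat, with a median of 0.86. Without cattle A or without goat B only 1 was called higher in cattle. PTPRZ1, a receptor phosphatase of precursors and astrocytes, stood at 235, 231 and 197 in cattle and 90.5, 81.5 and 91.6 in goat, a difference of 1.33 ± 0.17 (edgeR, BH adjusted p = 0.000407). PDGFRA, the receptor that marks precursors, was not called at 0.19 ± 0.33 (Length ratio 1.68). The other called members were CSPG4 at 1.03 ± 0.28 and SOX6 at 1.15 ± 0.29, both of which lost the call without cattle A (edgeR, BH adjusted p = 0.0525 and 0.0504) and without goat B, where they stood at 0.76 and 0.95, and CSPG4 also lost it without cattle B at 0.9. With no length correction the 3 calls ended and another member was called higher in goat, with PTPRZ1 at 0.86, CSPG4 at 0.74 and SOX6 at 0.72.

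Astrocyte genes were called higher in cattle in 7 of 15 cases by edgeR, with 8 not called and a median of 0.96. Over all pairs 13.9% were called higher in cattle. The median Length ratio of the list was 0.712. All tested pairs with a goat Length 1.2 to 2 times the cattle Length had a median of 0.58, with 25.9% called higher in cattle. In muscle the astrocyte list had a median of 1.25, and its median in the contrast of the 2 tissues described below was -0.02. DESeq2 gave 7 higher in cattle and 1 higher in goat, and with no length correction edgeR gave 4 and 1. The call count fell to 4 without cattle A, without cattle B and with scaling from the pairs of like Length. HEPACAM, an adhesion protein and the one member with like Lengths, was not called at 0.85 ± 0.23. It was called higher in cattle in 1 of the 6 fits without a library, that without goat A at 1.03. Of 13 other settings 1 called it, that with library totals at 1.08. AQP4, the water channel of astrocyte endfeet, stood at 680.2, 738 and 478 in cattle and 144, 77.2 and 129 in goat, a difference of 2.43 ± 0.29 (edgeR, BH adjusted p = 0.000287), at a Length ratio of 3.1. AGT, the angiotensinogen that astrocytes make, stood at 1910, 2931 and 1652 in cattle and 79.5, 47 and 184 in goat, 4.39 ± 0.52 apart (edgeR, BH adjusted p = 0.000288, Length ratio 0.381). SLC1A3, a glutamate transporter, was higher in cattle by 1.54 ± 0.30 (ratio 0.639) and NDRG2 by 2.27 ± 0.27 (ratio 0.351). Both calls ended with no length correction, at 0.57 for SLC1A3 and 0.43 for NDRG2. GFAP, the filament protein that increases in reactive astrocytes, was not called by edgeR, at 1503, 2438 and 1358 in cattle and 3685, 1279 and 7220 in goat (-1.2 ± 0.54, ratio 2.39), but DESeq2 called it higher in goat (DESeq2, BH adjusted p = 0.026), as did edgeR without goat B at -1.63. S100B was not called at -0.64 ± 0.34, and with no length correction it was called higher in cattle at 1.44 (Length ratio 5.3).

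**Figure D3:**
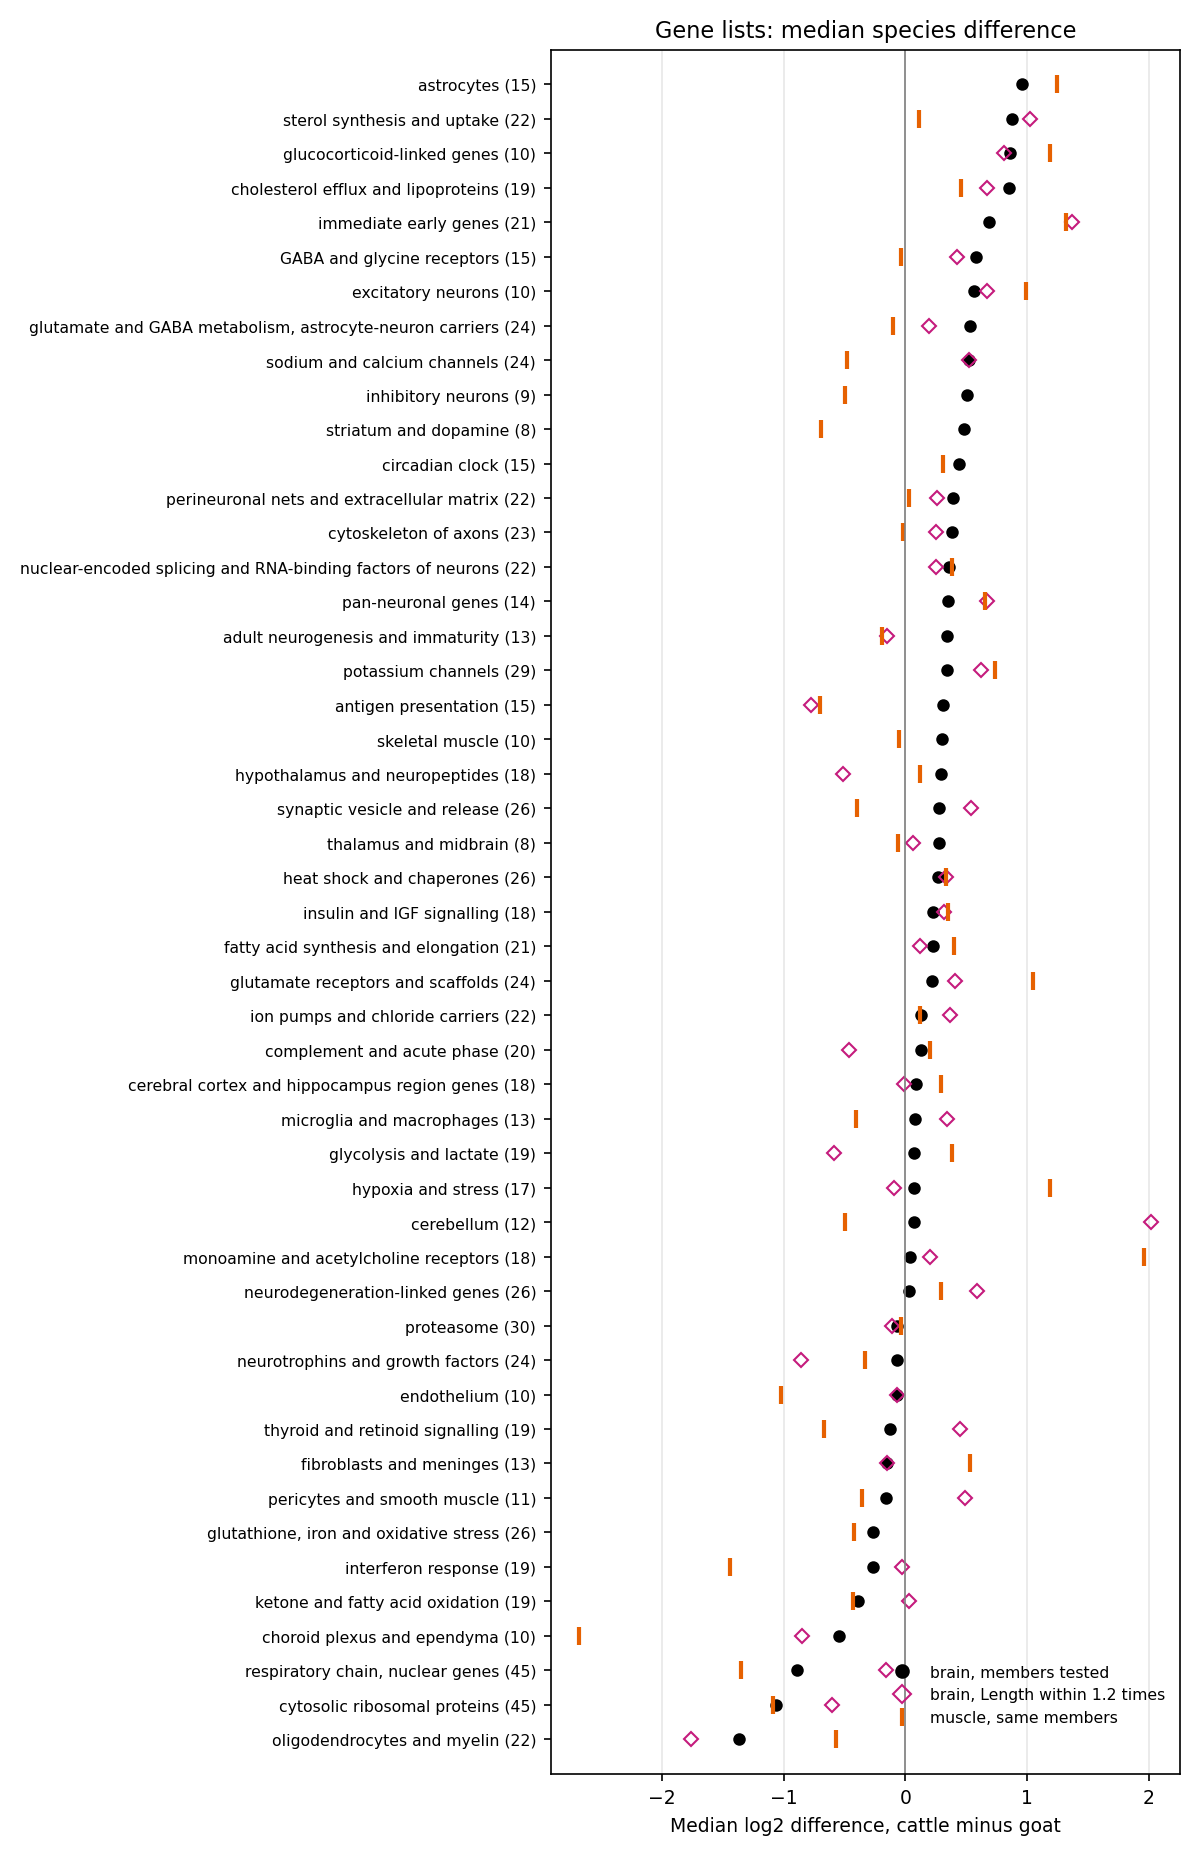
Median log2 difference, cattle minus goat, of each gene list with at least 8 tested members; circles are medians over all tested members and diamonds medians over members of like Length where there are at least 3, and ticks are medians of the same members in muscle. Myelin genes lie lowest at -1.37 of the cell type lists, and astrocyte genes at 0.96 and sterol synthesis at 0.88 lie among the highest. The muscle medians of the last 2 are 1.25 and 0.11.

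Genes of cholesterol synthesis and uptake were mostly higher in cattle, beside 13.9% of all pairs called higher in cattle and 14.2% higher in goat. Of 22 tested, 11 were called higher in cattle and 1 higher in goat, or 7 and 1 with scaling from the pairs of like Length. With no length correction 9 were higher in cattle and the call in goat ended. The median was 0.88, and 0.76 with no length correction, at a median Length ratio of 1.70. In muscle the median of the same genes was 0.11. SQLE, which adds oxygen to squalene and is among the controlled steps of the path, stood at 296, 296 and 306 in cattle A, B and C and at 81.6, 75.8 and 78.5 in goat A, B and C. The libraries of each species lay within a narrow band and the bands were far apart, with a log2 difference of 1.93 ± 0.15 (edgeR, BH adjusted p = 4.29e-05, Length ratio 0.798). For SQLE 48.9% of the goat exon bases are shared with another gene model, and the part of that in the difference was not tested.

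Of the 3 sterol genes of like Length, 2 were called. MVK, the mevalonate kinase, stood at 25.1, 23.5 and 21.01 in cattle and 11.6, 10.6 and 11.6 in goat, a difference of 1.04 ± 0.16 (edgeR, BH adjusted p = 0.00114). SREBF2, the transcription factor that switches on the path when sterols are low, stood at 347, 409 and 281 in cattle and 176, 137 and 197 in goat, a difference of 1.02 ± 0.22 (edgeR, BH adjusted p = 0.00506). Neither gene had libraries that overlapped between species, but both lie at the edge of a call. MVK fell below it without cattle A at 0.97, and SREBF2 without cattle B at 0.86 and without goat B at 0.89. With scaling from the pairs of like Length 0 of the 3 were called, with MVK at 0.87 and SREBF2 at 0.85. First-pass pairs alone also gave 0 calls, at 0.98 and 0.96, and RLE scaling gave 1, with SREBF2 at 0.99. MSMO1, a later demethylase, was not called at 0.73 ± 0.23. Outside like Length, DHCR7, the last enzyme of the path, was higher in cattle by 1.86 ± 0.23 (ratio 1.83), NSDHL by 2.89 ± 0.16 (ratio 0.43) and IDI1 by 2.92 ± 0.18 (ratio 0.216). The calls of IDI1 at 0.38, MVK at 0.47 and SREBF2 at 0.48 ended with no length correction. TM7SF2, a sterol reductase, was the member called higher in goat at -1.02 ± 0.19 (ratio 2.62, 36.1% of cattle exon bases shared), and with no length correction it stood at 0.04 without a call, and without goat C at -0.82.

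**Figure D4:**
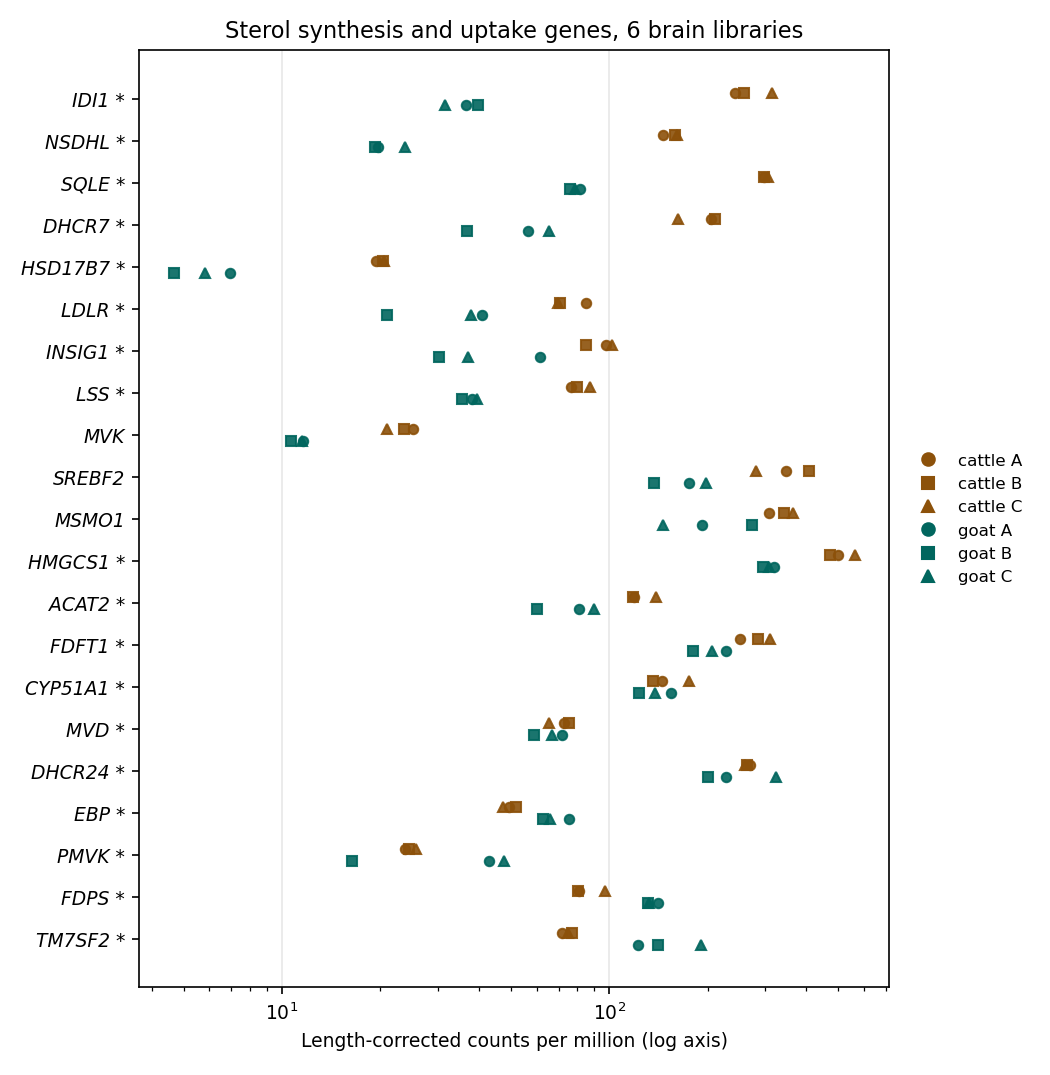
Length-corrected CPM (log axis) of sterol genes tested, with a point for each of the 6 brain libraries and an asterisk where Lengths differ by more than 1.2 times. Cattle points lie to the right of goat points from IDI1 down to FDFT1, and for SQLE they sit at 296 to 306 against 75.8 to 81.6.

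Genes that move cholesterol between cells gave fewer calls. The shares over all pairs were 13.9% higher in cattle and 14.2% higher in goat. Of 19 tested genes of efflux and lipoproteins, 5 were higher in cattle and 1 higher in goat, with a median of 0.85, and without goat C 9 were higher in cattle. Of the 6 of like Length 0 were called by edgeR, DESeq2 or limma-voom, with a median of 0.67, and 5 were higher in cattle and 1 higher in goat at an unadjusted p under 0.05. LCAT, which esterifies cholesterol on lipoproteins, stood at 177, 220 and 188 in cattle and 34.7, 34.6 and 36.3 in goat, a difference of 2.47 ± 0.16 (edgeR, BH adjusted p = 1.8e-05) at a Length ratio of 0.602 and with 10% of goat exon bases shared. APOE, the main apolipoprotein of brain, stood at 3181, 3954 and 2347 in cattle and 1461, 1079 and 1554 in goat, with all cattle libraries above all goat libraries. Its difference was 1.21 ± 0.26 (edgeR, BH adjusted p = 0.00528, Length ratio 0.588), and the call ended without cattle B at 0.99 and with no length correction at 0.12. ABCA1, the exporter that loads those particles, was not called at 0.77 ± 0.24.

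The counts of calls in the neuronal lists moved with single libraries. Of 10 excitatory neuron genes 2 were called higher in cattle (13.9% over all pairs) and 8 were not called, with a median of 0.56, and 1 was called without cattle C, without goat A or with no length correction. Their summed level was 3555 to 5207 in cattle and 2849 to 2994 in goat, without overlap. Of 9 inhibitory neuron genes 0 were called by edgeR, DESeq2 or limma-voom, with a median of 0.51 and 3 higher in cattle at an unadjusted p under 0.05. Without goat C 2 of them were called and the median was 0.91, without goat A the median was 0.27, and with no length correction it was -0.10 with 1 called each way. Of 14 pan-neuronal genes 2 were called higher in cattle and 12 were not called, with a median of 0.35, and without goat C 4 were higher in cattle and 1 higher in goat. Of 26 genes of the synaptic vesicle 2 were higher in cattle and 24 were not called, with a median of 0.28. Without goat B both calls ended and 1 was higher in goat, and with no length correction 6 were higher in cattle. Endothelial genes, as markers of vessels in the tissue, gave 0 calls of 10 by the same 3 tools, with a median of -0.07 that turned to 0.17 with library totals, and 2 were higher in goat at an unadjusted p under 0.05. SLC17A7, the vesicular glutamate transporter of cortical neurons, stood at 1157, 1203 and 1215 in cattle and 611, 676 and 962 in goat, 0.67 ± 0.22 apart and not called (Length ratio 0.788). GAD2, the synaptic form of the GABA enzyme, stood at -0.05 ± 0.20 (ratio 0.612), and with no length correction it was called higher in goat at -1.08. A p that misses the threshold does not show that levels were equal.

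Receptors and scaffolds of glutamate synapses were mixed. Beside them stand 13.9% of all pairs called higher in cattle and 14.2% higher in goat, and 11.3% and 8.43% at like Length. Of 24 tested, 6 were higher in cattle and 1 higher in goat, with a median of 0.22, but 3 and 3 with scaling from the pairs of like Length, and 3 were higher in cattle without goat B. Of 11 of like Length 4 were higher in cattle and 7 were not called, with a median of 0.41 beside 0.18. With scaling from the pairs of like Length 2 of these were higher in cattle and 1 higher in goat, with a median of 0.25. Without cattle B 3 were higher in cattle and their median was 0.20. GRM2, a presynaptic glutamate autoreceptor, stood at 23.7, 28.2 and 13.9 in cattle A, B and C and at 6.20, 7.41 and 7.59 in goat A, B and C, without overlap, a difference of 1.63 ± 0.28 (edgeR, BH adjusted p = 0.00171). The scaffold SHANK2 was higher by 1.06 ± 0.25, and the NMDA receptor subunit GRIN2B stood at 8.07, 5.21 and 7.68 in cattle and 2.32, 2.46 and 5.34 in goat, with overlap between the species (edgeR, BH adjusted p = 0.0413). Both were at the edge of a call, which SHANK2 lost without cattle B, just below a log2 of 1, and without goat B at 0.81. GRIN2B lost it without cattle A, cattle C, goat A or goat B, at 0.84 to 0.97. Neither was called with no length correction, SHANK2 at 0.93 and GRIN2B at 0.47. GRM3, a glutamate receptor of astrocytes and neurons, was the member higher in goat, at 83.2, 80.8 and 69.4 in cattle and 238, 232 and 201 in goat (-1.52 ± 0.16, Length ratio 1.23).

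Among receptors of other transmitters, CHRNB2, the beta subunit of the main nicotinic receptor of brain, stood at 83.6, 76.3 and 81.7 in cattle and 28.4, 28.2 and 49.6 in goat, a difference of 1.18 ± 0.24 (edgeR, BH adjusted p = 0.0041). HTR2A, a serotonin receptor of cortical neurons, stood at 20.7, 25.03 and 18.6 in cattle and 5.06, 7.05 and 5.24 in goat, 1.89 ± 0.21 apart (edgeR, BH adjusted p = 0.000213, Length ratio 0.718). In both genes every cattle library lay above every goat library. For GABA and glycine, 5 of 15 receptor genes were higher in cattle and 1 higher in goat, and without goat A 3 were higher in cattle. Over all pairs the shares were 13.9% and 14.2%. The 6 of like Length held 1 call, higher in goat, which was lost with library totals and in 5 of the 6 fits without 1 library, all but that without cattle C. GABBR1, a subunit of the metabotropic GABA receptor, stood at 1.27 ± 0.24 (ratio 0.693) and, with no length correction, at 0.41 without a call. NTRK2, the receptor for BDNF, stood at 291, 273 and 229.5 in cattle and 55.5, 33.4 and 52.05 in goat, a difference of 2.49 ± 0.24 (edgeR, BH adjusted p = 9.31e-05) at a Length ratio of 0.571.

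Enzymes of dopamine synthesis were low but apart. TH, the rate-limiting enzyme of dopamine synthesis, stood at 4.38, 6.45 and 7.77 in cattle and 0.189, 0.133 and 0.474 in goat, a difference of 4.47 ± 0.52 (edgeR, BH adjusted p = 0.00027). DDC, the next enzyme, stood at 19.7, 25.01 and 9.43 in cattle and 0.406, 0.786 and 0.499 in goat, a difference of 5.01 ± 0.45 (edgeR, BH adjusted p = 7.09e-05, Length ratio 0.66). Goat levels of both were under 1 in each library. Of the 8 tested genes of striatum and dopamine these were the 2 called by edgeR, beside 13.9% called higher in cattle over all pairs. By limma-voom 4 were called higher in cattle, and 3 with the replicate block or with library totals. With no length correction 4 were higher in cattle and 1 higher in goat. PENK, the enkephalin precursor of striatal neurons, stood at 70.4, 25.97 and 19.2 in cattle and 122, 124 and 19.3 in goat with overlapping groups. Without goat C PENK was called higher in goat at -1.68. The TH difference rests on 16 counts over the goat group and that of DDC on 97.

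Immediate early genes, which neurons switch on within minutes of activity or stress, were higher in cattle in 8 of 21 cases and higher in goat in 1, with a median of 0.69. FOSB stood at 20.6, 15.6 and 17.4 in cattle A, B and C and at 3.89, 7.30 and 9.54 in goat A, B and C, without overlap, 1.37 ± 0.32 apart (edgeR, BH adjusted p = 0.00742, and 0.272 when the spread was shared with the muscle libraries). EGR2 stood at 17.1, 15.2 and 8.41 in cattle and 5.18, 6.03 and 3.20 in goat, a difference of 1.5 ± 0.37 (edgeR, BH adjusted p = 0.0101) that lost the call without cattle A (edgeR, BH adjusted p = 0.0528). EGR3 was higher by 1.75 ± 0.27 (Length ratio 1.64). NPAS4, which responds only to neuronal activity, was not called at 0.02 ± 0.42, and ATF3, a stress-induced factor, was the member higher in goat at -2.15 ± 0.37 (ratio 3.75). The calls of FOSB at 0.98 and ATF3 at -0.57 ended with no length correction. In muscle the median of the immediate early list was 1.32, above that in brain. Among 26 heat shock genes 7 were higher in cattle and 1 higher in goat, or 4 higher in cattle without cattle B and 2 with no length correction, and BAG3, a co-chaperone of protein clearance, stood at 96.2, 103 and 60.5 in cattle and 23.5, 26.01 and 21.4 in goat (1.87 ± 0.22, edgeR, BH adjusted p = 0.000304). Beside the counts of both lists stand 13.9% called higher in cattle and 14.2% higher in goat over all pairs. The time from death to freezing is not given, and its part in these differences was not tested.

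Clock genes included a wide difference. NPAS2, the partner of BMAL1 in forebrain, stood at 189.5, 244 and 166 in cattle and 20.9, 19.8 and 31.3 in goat, a difference of 3.06 ± 0.25 (edgeR, BH adjusted p = 5.03e-05, Length ratio 0.729). Of the 15 clock genes 4 were higher in cattle and 1 higher in goat, with a median of 0.44, beside 13.9% and 14.2% called over all pairs. The hour of sampling is not given.

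Immune genes were split between the species. Their counts stand beside 13.9% called higher in cattle and 14.2% higher in goat over all pairs. Of 13 genes of microglia and macrophages 3 were higher in cattle and 3 higher in goat, with a median of 0.08, which was -0.10 with scaling from the pairs of like Length. Without cattle A 1 was higher in cattle, and without goat A 1 was higher in goat. C1QB, a chain of the complement starter C1q, stood at 217, 163 and 134 in cattle and 67.8, 48.5 and 59.3 in goat, a difference of 1.55 ± 0.22 (edgeR, BH adjusted p = 0.000676), whereas C1QA, its partner chain, stood at 18.6, 23.8 and 15.2 in cattle and 24.3, 16.4 and 21.6 in goat (-0.12 ± 0.23, Length ratio 0.804). Of 20 genes of complement and acute phase 4 were higher in cattle and 6 higher in goat, with a median of 0.13 that was -0.04 with that scaling. C1S, the protease that C1q sets to work, stood at 7.42, 9.26 and 7.93 in cattle and 25.1, 37.1 and 34.5 in goat, a difference of -1.98 ± 0.21 (edgeR, BH adjusted p = 0.000152). C3, on which all complement paths meet, stood at 116, 60.6 and 78.4 in cattle and 613, 253 and 552 in goat, a difference of -2.48 ± 0.37 (edgeR, BH adjusted p = 0.00093) at a Length ratio of 1.21.

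The chemokine CXCL10, which interferon switches on, had the widest difference of the interferon list. It stood at 0.149, 0.505 and 0.23 in cattle and 13.02, 42.4 and 11.9 in goat, -6.27 ± 0.70 apart (edgeR, BH adjusted p = 0.00021), and muscle of the 2 species differed in the same direction at -5.47. It rests on 19 counts over the cattle group. The list counts that follow stand beside 13.9% higher in cattle and 14.2% higher in goat over all pairs, and 11.3% and 8.43% at like Length. Of 19 interferon genes 2 were higher in cattle and 5 higher in goat, with a median of -0.27, and of the 9 of like Length 1 each, with OAS2, an antiviral enzyme, at 1.85 ± 0.46 and 39 counts over the goat group, not called when the spread was shared with the muscle libraries (edgeR, BH adjusted p = 0.119). Lymphocyte genes were few and split, with CD3E of T cells at 0.193, 0.163 and 0.0892 in cattle and 17.4, 22.6 and 15.6 in goat (Length ratio 4.34) and MS4A1 of B cells at 9.06, 6.47 and 9.89 in cattle and 0.22, 0.116 and 0.0552 in goat (ratio 0.371). They rest on 16 counts over the cattle group for CD3E and 26 over the goat group for MS4A1. Both differences lie towards the species with the shorter gene model. All 4 blood cell genes tested were called and lay outside like Length, 1 higher in cattle and 3 higher in goat, and the summed level of that list was 6.94 to 10.1 in cattle and 26.8 to 33.2 in goat.

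Ribosomal proteins and the nuclear genes of the respiratory chain were lower in cattle as lists, but their gene models differ in Length. The shares called higher in goat and in cattle were 14.2% and 13.9% over all pairs, and 8.43% and 11.3% at like Length. Of 45 ribosomal protein genes 24 were higher in goat and 21 were not called, with a median of -1.06 at a median Length ratio of 1.43. Of the 12 of like Length 2 were called higher in goat, with a median of -0.60 beside 0.18. Those were RPL27 at 632, 768 and 606 in cattle and 1415, 1286 and 1485 in goat (-1.06 ± 0.17) and RPL4 at -1.06 ± 0.20, which lost the call without goat A at -0.92. With library totals 15 of the 45 were higher in goat and both of these calls ended, and with no length correction 15 were. Near-identical copies make each of these uncertain. In muscle the same list had a median of -1.09, and its median in the contrast of the 2 tissues described below was -0.01. Of 45 respiratory chain genes 20 were higher in goat and 4 higher in cattle (8 higher in goat with no length correction) at a median Length ratio of 1.83, with a median of -0.89 in brain and -1.35 in muscle, and of the 5 of like Length 0 were called by edgeR, DESeq2 or limma-voom, with a median of -0.16 that was 0.07 with library totals. At an unadjusted p under 0.05, 1 of these was higher in cattle and 2 higher in goat.

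Single genes of other roles were apart at like Length. EGFR, the growth factor receptor, stood at 2.93, 2.62 and 2.30 in cattle and 5.68, 6.68 and 6.80 in goat, a difference of -1.28 ± 0.22 (edgeR, BH adjusted p = 0.002). CCNB1, the cyclin of mitosis, stood at 0.818, 0.757 and 1.65 in cattle and 7.04, 10.1 and 8.85 in goat, a difference of -3.01 ± 0.41 (edgeR, BH adjusted p = 0.000579). In both genes all goat libraries lay above all cattle libraries. CYP26B1, which breaks down retinoic acid, stood at 24.03, 36.3 and 17.6 in cattle and 8.70, 6.99 and 6.33 in goat, 1.82 ± 0.28 apart (edgeR, BH adjusted p = 0.00096). ELOVL7, an elongase of long fatty acids found in oligodendrocytes, stood at 9.41, 8.96 and 11.6 in cattle and 28.99, 25.96 and 22.9 in goat and was higher in goat at -1.37 ± 0.18 (edgeR, BH adjusted p = 0.000517).

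Species differences in brain were set beside those in muscle of the same species. The difference in brain less the difference in muscle, over 12 libraries, does not depend on the Length of the gene models, which is shared by both tissues. Of 3453 pairs of like Length tested in that contrast, 307 (8.89%) had a cattle excess in brain and 334 (9.67%) a goat excess. The goat excess count rests in part on single libraries, with 214 without cattle brain C and 207 without goat brain A. With another scaling (RLE) the counts were 346 and 250. Of 659 pairs of like Length called in brain, 288 differed past the same limits and in the same direction in muscle, 38 differed in the opposite direction and 333 did not pass in muscle. How many of all pairs of like Length pass these limits in muscle was not counted, so these numbers have no share to stand beside. For 159 of the 659 the contrast itself was called in the direction of the brain difference. The contrast holds the brain values by which the 659 were called, so that count is a description and no test.

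RBM24 had a goat excess in brain that muscle did not share. It stood at 725 in cattle muscle and 424 in goat muscle as means, against 19.6 and 272 in brain, and the contrast was -4.56 ± 0.34 (edgeR, BH adjusted p = 9.87e-06). SERPINF1 stood at 48.5 and 34.02 in muscle, so that its brain difference gave a contrast of 3.23 ± 0.59 (edgeR, BH adjusted p = 0.00253). NPTX2, a pentraxin that gathers glutamate receptors at synapses, was higher in cattle brain by 1.31 ± 0.14 (0.84 and not called with no length correction) and lower in cattle muscle, with 2 counts over the cattle muscle group and 45 over the goat group. Its contrast was 5.77 ± 0.92 (edgeR, BH adjusted p = 0.00117). The contrast of SHC2, a signalling adaptor of neurons, was 4.11 ± 0.63 with means of 0.284 and 3.49 in muscle, where brain alone was not called at 0.46 ± 0.21.

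In other contrasts the species differed more in muscle than in brain. SLC7A8, a carrier of neutral amino acids, averaged 574 in cattle muscle and 3.01 in goat muscle, against 58.4, 55.4 and 53.4 in cattle brain and 16.6, 22.4 and 27.8 in goat brain. Cattle lay above goat in both tissues, by far more in muscle (0.86 and not called in brain with no length correction), and the contrast was -6.25 ± 0.59 (edgeR, BH adjusted p = 3.04e-05). SLC16A6 averaged 580.1 and 2.25 in muscle, with a contrast of -5.45 ± 0.62 (edgeR, BH adjusted p = 0.000127). SYNJ2, a phosphoinositide phosphatase, and SEL1L3 gave -4.42 ± 0.58 and -3.27 ± 0.36 in the same way. SRR was higher in goat in both tissues and gave 3.19 ± 0.42. CACNG5, a partner of AMPA receptors, and DPYSL4, a protein of growing axons, gave 5.01 ± 1.44 and 4.03 ± 1.14, with 0 and 3 counts for CACNG5 and 1 and 9 for DPYSL4 over the cattle and goat muscle groups. For CACNG5 3.4% of cattle exon bases are shared. With so few counts in muscle the fitted size of these contrasts, and of that of NPTX2, is no bound. CACNG5 lost its call in 7 of 12 fits without 1 library, from 4.19 without goat muscle A to 5.04 without cattle muscle A. DPYSL4 lost its call without cattle muscle B at 3.50, cattle muscle C at 3.55 and goat muscle C at 2.41.

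**Figure D5:**
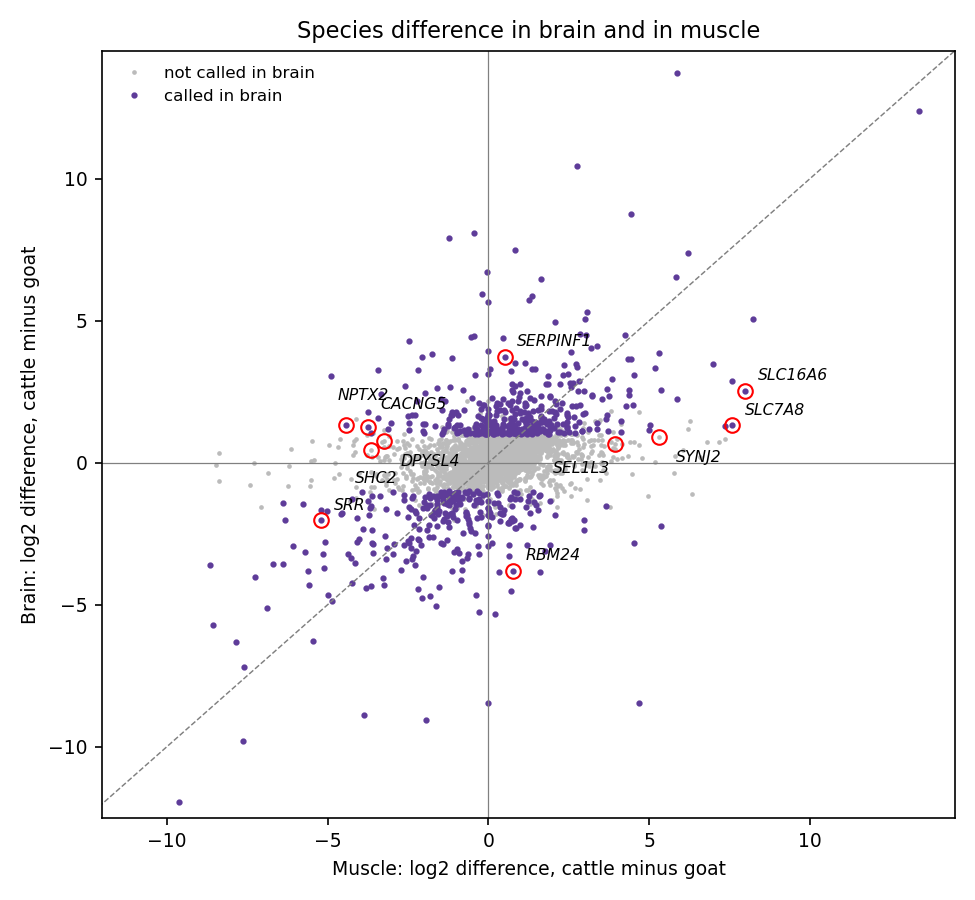
Log2 difference, cattle minus goat, in brain (vertical axis) against the same in muscle (horizontal axis) for pairs of like Length, with pairs called in brain in colour, the line of equal differences dashed and the 11 named pairs circled. RBM24 lies at -3.80 in brain and 0.77 in muscle, and SLC7A8 at 1.32 in brain and 7.58 in muscle.

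Over all 12301 pairs tested in the contrast, 9.63% had a cattle excess in brain and 9.84% a goat excess. Sterol genes held 7 of 22 with a cattle excess and 15 not called, and myelin genes 2 of 22 with a goat excess and 20 not called. Astrocyte genes held 4 of 15 with a cattle and 2 with a goat excess, and immediate early genes 4 and 5 of 21. CLDN11 was at or below 1.11 on average in muscle of both species and gave -2.73 ± 0.58 (edgeR, BH adjusted p = 0.00584).

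Sheep brain, counted on its own models and scaled together with the other 2 species, gives a further level for the same genes, as a description. Among 364 pairs of like Length called between cattle and goat whose sheep partner also had like Length, the sheep mean lay nearer to goat in 249 (68.4%) and nearer to cattle in 115. Over all 1910 such pairs, called or not, it lay nearer to goat in 1179 (61.7%). Sheep brain C stood apart from sheep A and B for several genes named here, and without it the 249 became 259 (71.2%). For ENTREP1 the sheep libraries stood at 2.91, 2.90 and 4.35 in A, B and C, beside means of 39.7 in cattle and 4.07 in goat on the same scale. AFF1 stood at 8.83, 7.98 and 1.18, beside 43.6 and 6.47. In both genes all sheep libraries lay below the cattle mean, and sheep C of AFF1 also lay below the goat mean. For PET117 and VSIG2 the sheep libraries lay near cattle, at 31.1, 40.6 and 14.9 beside 42.4 in cattle and 211 in goat for PET117, and at 24.03, 25.4 and 11.02 beside 16.8 and 276 for VSIG2. SERPINF1 was uneven in sheep, at 42.7, 7.71 and 45.9, beside 36.4 in cattle and 2.75 in goat.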

How the data were processed

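RNA-seq counts of 3 cattle and 3 goat brain libraries were compared, and cattle and goat muscle and sheep brain were used where named. The deposited values are raw counts per gene, made by the authors with Trimmomatic 0.39, STAR 2.7.6 and featureCounts, per the submitters' processing notes. ARS-UCD1.2 is the only build named there. The goat build, strandedness and the handling of shared or multiply placed reads are not stated in the sources used. Sample titles gave the groups. The gene lists and the genes described were chosen with earlier results of these data known.

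Cattle genes were named by position from the RefSeq gene table, since 0 identifiers matched. Goat and sheep genes were paired with cattle by a minimum of 2 neighbouring-exon length pairs in common (8757 goat pairs), or at least 1 shared exon length between paired neighbours within 5 genes on each side (5307). As a check, the 8757 pairs of the first rule were held out in turn and looked for by the second rule. It gave 6657 of them a partner, the same as before in 99.91% of those 6657, and found no partner for the rest. The 5307 pairs of the second rule had no such check of their own.

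Counts were fitted with edgeR 4.0.16 in R 4.3.3 (robust quasi-likelihood test), with filterByExpr, TMM factors and Length as an offset, and tested on simulated data. BH adjustment ran over all pairs tested. Totals of 20730803 to 58514630 counts leave the spread between libraries, more than counting, to set the precision of the genes named, except where few counts are stated. Alternatives were other scalings and filters, DESeq2 1.42.0, limma-voom (limma 3.58.1), no length correction, first-pass pairs, Lengths within 5%, a replicate block and each library left out. Scaling from pairs of like Length and leaving out pairs with over 20% of exon bases shared were chosen after seeing the data.

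Genes named were the 15 pairs per direction with the largest difference among pairs of like Length that were called, had no overlap between species and a mean of at least 32 CPM. Added to these were, per list, up to 4 called members of like Length, up to 2 called against the others and the 2 of highest level, and 6 pairs per direction from the contrast with muscle. ABCA1, AGT, AQP4, C1QA, C3, CNP, DDC, DHCR7, FDFT1, GAD2, HEPACAM, HTR2A, IDI1, LCAT, MAG, MOG, MSMO1, NDRG2, NPAS4, NSDHL, NTRK2, OPALIN, PDGFRA, PENK, RBFOX3, SOX10, SQLE, TF, TPI1 and TUBA4A were named after their values were seen. Lists were described by counts and medians, with no test. A few genes that this rule takes are not reported here and are not drawn, but stay in the fits and list counts.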

Additional observations from a re-analysis of the deposited data

Results flagged for a closer look

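For 11 pairs of like Length the species difference in brain differed from that in muscle by the edgeR contrast over 12 libraries. These are pairs that the rule for named genes took for their size in that contrast, so their size is a description. An excess here means that cattle less goat was larger, or smaller, in brain than in muscle, whatever the direction in brain. With a cattle excess in that sense these were NPTX2 at 5.77 ± 0.92, CACNG5 at 5.01 ± 1.44, SHC2 at 4.11 ± 0.63, DPYSL4 at 4.03 ± 1.14, SERPINF1 at 3.23 ± 0.59 and SRR at 3.19 ± 0.42 on the log2 scale. SRR was itself higher in goat brain. With a goat excess they were SLC7A8 at -6.25 ± 0.59, SLC16A6 at -5.45 ± 0.62, RBM24 at -4.56 ± 0.34, SYNJ2 at -4.42 ± 0.58 and SEL1L3 at -3.27 ± 0.36, of which RBM24 was higher in goat brain and SLC7A8 and SLC16A6 were higher in cattle brain, with SYNJ2 and SEL1L3 not called in brain. The edgeR BH adjusted p of these contrasts ran from 9.87e-06 for RBM24 to 0.0306 for CACNG5. NPTX2 moved to 8.82 without cattle muscle C. CACNG5 lost its call in 7 of 12 fits without 1 library, and DPYSL4 in 3, falling to 2.41 without goat muscle C.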

How the results depend on the processing

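Of the 114 genes named here and tested, 90 were called in brain, 78 of these still in each fit without 1 library and 62 in each alternative that tested them. All 90 kept their sign in the fits without 1 library. Many were named because they were called or after their values were seen, and these fits share most libraries. Keeping a call or sign was thus largely set by that choice and adds no support. Among the 90 are LRRC73, MICOS13 and TUBA4A, whose goat exon bases are all or nearly all shared with another gene model. The counts of calls changed most with the pairs and the scaling used. Among the 3347 pairs of like Length, those higher in cattle numbered 378 and became 594 with library totals and 213 with no length correction. First-pass pairs gave 235 higher in cattle of 2483 tested. Lengths within 5% gave 93 of 1236 tested. There pairs higher in goat fell from 282 to 134, so that more were higher in goat than in cattle. Over all 11982 pairs tested, 1670 were higher in cattle and 1697 higher in goat. The first-pass pairs gave 1002 and 1004 of 8033 tested, and Lengths within 5% 93 and 134 of 1236. In the contrast with muscle the goat excess fell from 334 of 3453 tested to 180 of 2525 with first-pass pairs. Lists with a median above 0.5 numbered 10, and 23 with library totals, 4 with no length correction, 5 with scaling from pairs of like Length and 5 over pairs of like Length alone. Lists below -0.5 numbered 4, and 2 over pairs of like Length alone. With no length correction S100B stood at 1.44 and TM7SF2 at 0.04, against the sign given by the corrected counts.

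Leaving out each library in turn gave 1487 to 1817 pairs higher in cattle and 1581 to 1778 higher in goat over all pairs, and 319 to 444 and 232 to 314 among those of like Length. In the contrast it gave 223 to 323 and 207 to 365, the goat excess falling most without goat brain A (207) and cattle brain C (214). Lists above 0.5 then numbered 9 to 12, and those below -0.5 stayed at 4.

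The letters did not pair the libraries: deviations of same-lettered cattle and goat libraries correlated at 0.224, -0.184 and -0.0511. With the letter as a replicate block, 1720 and 1648 of all pairs and 398 and 274 of those of like Length were called, and 279 and 290 in the contrast. Leaving out pairs with over 20% of exon bases shared gave 357 and 270 among pairs of like Length.

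The alternatives restricted to first-pass pairs, to Lengths within 5% or to like Length test fewer pairs; for the other settings the cause of these changes was not tested. Counts are given beside genes that rest on few of them, where counting limits the precision, and each group has 3 libraries.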

Other observations

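The following levels are length-corrected CPM. A few genes with regional expression in brain were highest in library C of both species. PRKCD, a kinase enriched in thalamic neurons, stood at 12.3, 18.8 and 38.4 in cattle A, B and C and at 10.8, 7.70 and 150.2 in goat A, B and C. CALB2, a calcium buffer of interneurons and thalamus, stood at 48.4, 39.1 and 110.4 in cattle and 19.4, 18.9 and 101 in goat (Length ratio 0.827), and GNAL, the G protein of striatal dopamine receptors, at 87.4, 87.1 and 144 in cattle and 17.97, 19.3 and 100.5 in goat (Length ratio 3.34). The letters do not pair the species, and none was called between species with all 6 libraries (edgeR, BH adjusted p = 0.32, 0.557 and 0.136). Without goat C, CALB2 at 1.78 and GNAL at 2.51 were called higher in cattle, and GNAL also was by limma-voom at 1.61, with the replicate block at 1.66 and with no length correction at 2.61. These genes were chosen after their values were seen.

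Further genes outside the groups above differed without overlap between the species. FKBP5, a glucocorticoid-induced co-chaperone, stood at 103, 104 and 124 in cattle and 26.5, 15.7 and 43.7 in goat, a difference of 1.94 ± 0.32 (edgeR, BH adjusted p = 0.00158, Length ratio 2.7). PDK4, which turns cells from glucose to fat as fuel, stood at 55.6, 74.8 and 56.9 in cattle and 13.8, 9.37 and 11.7 in goat, a difference of 2.42 ± 0.21 (edgeR, BH adjusted p = 6.25e-05, Length ratio 0.727). The glutamine carrier SLC38A3 of astrocytes stood at 81.8, 76.9 and 44.3 in cattle and 20.01, 19.04 and 11 in goat, a difference of 2.02 ± 0.30 (edgeR, BH adjusted p = 0.000878, Length ratio 0.484), and with no length correction the difference was 0.65 and not called. These 3 genes were also named after their values were seen.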
